A study of Mus musculus with 10 samples.

Results

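The genes described here encode the machinery of the lysosome: the hydrolases that break down cargo in its lumen, the small proteins that help them, the proteins of its membrane and the proton pump that acidifies it. A list of 48 genes was matched to the arrays, and a gene was taken where the platform annotation named it as the only gene of a probe set. This found 43 of the 48 genes on 61 probe sets, out of 8251 genes that the arrays named in this way. Of the 43, 36 passed the filter on dim values and were tested, out of 5764 genes tested in all. The list held 22 hydrolases, 4 luminal cofactors, 7 membrane proteins and 15 proton pump subunits or accessory proteins.

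RNA came from the gastrocnemius, a large calf muscle, of male mice aged 16 weeks. There were 5 arrays of normal mice, called control here, and 5 of mdx mice, a strain with a mutation in the dystrophin gene whose muscle fibres die and regenerate. Mouse strain and treatment were not given for either group, and no transgene or drug was named. Nothing in the labels tells whether each array had its own animal. The p-values then measure only the spread between the arrays, which may be technical.

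Lysosomes are acidic compartments that receive material from endocytosis, phagocytosis and autophagy, and their enzymes need the low pH that the proton pump keeps. All cells have them, and macrophages, which engulf dead cells, are rich in them; in muscle fibres they are known mainly for the turnover of glycogen and of worn organelles. Transcription factors of the TFEB family bind a motif with the core letters CACGTG near the start of many lysosomal genes.

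The Dmd probe set, which reports the mutated gene, read 159 to 237 across the mdx arrays and 643 to 1003 across the control arrays, so the groups did not overlap. Arrays of a group correlated more closely (r = 0.961 to 0.977 in control, 0.952 to 0.977 in mdx) than arrays of different groups (0.885 to 0.910). Of 18 mature muscle fibre markers, 17 were tested, while Myh2, a fast myosin, was at or below 0 on all 5 control and 3 mdx arrays. The array of mdx replicate 1 had a trimmed mean of 715.1, against 789.2 to 793.4 on the other arrays, and it was the lowest of its group for 24 of the 36 tested members. The hybridization controls, RNA spiked in at a fixed amount, were brighter on the control arrays (geometric mean 9762 to 12868) than on the mdx arrays (5936 to 7940). The 3' to 5' ratio of actin, a sign of RNA quality, was 1.07 to 1.16 in control and 0.952 to 1.08 in mdx. The same ratio of Gapdh was alike in both groups, 0.672 to 0.823 in control and 0.690 to 0.792 in mdx. The part of these technical differences in the results was not tested.

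More lysosomal genes rose than fell in mdx muscle. Of the 36 tested members, 17 were higher in mdx, 3 were lower and 16 did not pass an adjusted p of 0.05 in limma with Benjamini-Hochberg adjustment over all 7612 tested probe sets. Over all tested genes, 16.1% were called higher and 18.6% lower. Non-overlapping groups, with mdx higher, were found for 16 tested members (12.7% of all tested genes) and, with mdx lower, for 2 (13.6%). The median change of the tested members was 0.26 on the log2 scale, and that of all tested genes was -0.04, with quartiles of -0.25 and 0.20. Changes are mdx minus control of log2(intensity + 373.2), where 373.2 is the noise level taken from the values below 0, and they understate the change of dim genes. Scaling the arrays to their hybridization controls moved the median of all genes to 0.36 and called 47.7% of them higher and 1.46% lower. Of the members, 29 were then called higher and 0 lower, 12 of them in the proton pump. Relative to the median of all genes, 31 of the 36 members lay above it under the deposited scaling and under each of 3 other scalings. Of these, equal trimmed means and the hybridization controls multiply all values of an array by the same factor. Its genes then shift largely together, so the repeated count is not a separate check there.

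**Figure D1:**
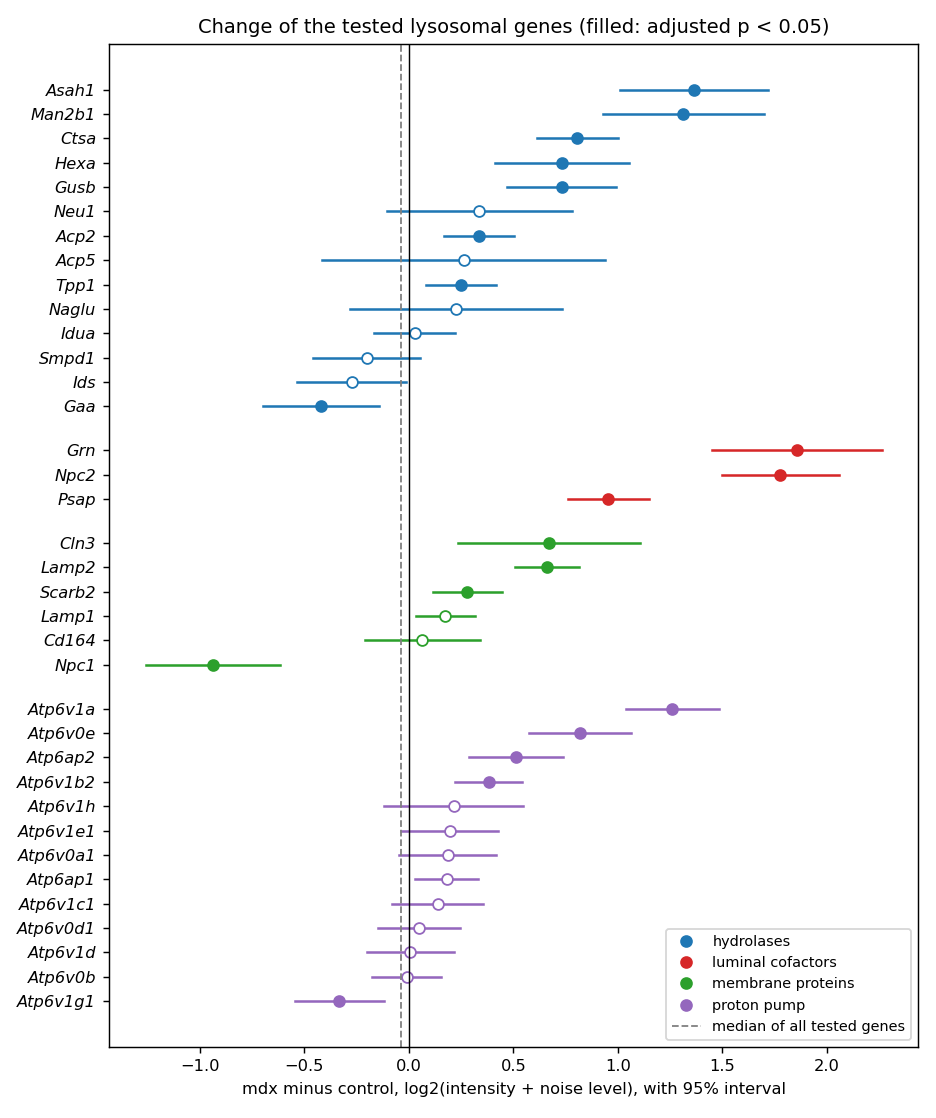
Change of each of the 36 tested members, mdx minus control, on the log2(intensity + noise level) scale, with 95% intervals; 5 arrays per group, filled points at an adjusted p below 0.05, dashed line at the median of all tested genes (-0.04). Grn (1.86), Npc2 (1.78), Asah1 (1.36), Man2b1 (1.31) and Atp6v1a (1.26) lie farthest to the right, Npc1 (-0.94) farthest to the left, and the changes of Gaa and Atp6v1g1, below 0 here, turn positive when arrays are scaled to their hybridization controls.

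The share called higher was 50% in both hydrolases and membrane proteins, 100% in the 3 cofactors and 30.8% in the proton pump. Over all tested genes, 16.1% were called higher and 18.6% lower. Of 14 tested hydrolases, 7 were higher and 1 lower, with a median change of 0.30. All 3 tested luminal cofactors were higher, with a median of 1.78. Of 6 tested membrane proteins, 3 were higher and 1 lower, with a median of 0.23. Of 13 tested proton pump genes, 4 were higher and 1 lower, with a median of 0.19. The class medians were positive under all 4 scalings. With genes whose control arrays all lay below the noise level entered at their lower bound, the hydrolase median was 0.26. Differences between classes were not tested, since the members of a class are not replicates.

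**Figure D2:**
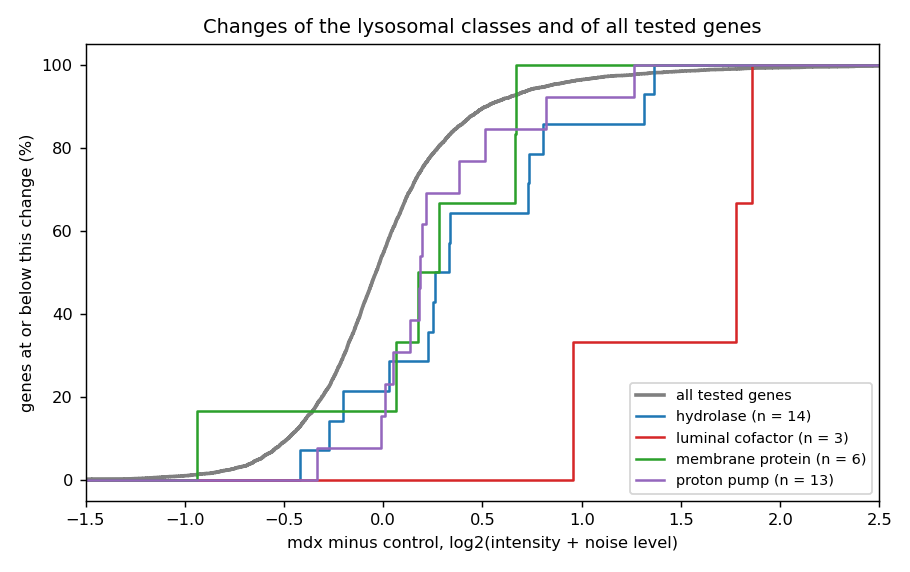
Share of genes (%) at or below each change, mdx minus control on the log2(intensity + noise level) scale, for the 4 lysosomal classes and for all 5764 tested genes. The curves of hydrolases, membrane proteins and proton pump lie mostly to the right of the grey curve, with medians of 0.30, 0.23 and 0.19 against -0.04, and that of the 3 cofactors lies farthest right; all but 3 of the genes called in these classes were higher in mdx.

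Upstream sequence is shown for some of the members that hold the CACGTG core, because the core is common in this group while the members that hold it differ in their change. RefSeq windows of 300 bases, 250 before and 50 after the start of the gene (build GRCm38.p6), were at hand for 41 of the 48 members. CACGTG, which reads the same on both strands, was found in 14 of them (34.1%), against 8.09% of 27025 genes with a window and 12.1% of 4626 genes tested on these arrays. The longer GTCACGTG, searched on both strands and containing the core, was found in 11 (26.8%), against 2.55% and 4.95%. Ctsa, Cln3 and Atp6v1a were called higher, Gaa was called lower under the deposited scaling with its sign turned under the hybridization controls, and Lamp1 and Atp6v0b were not called. Stretches were taken from the 250 bases before the start, so matches in the 50 bases after it are not shown. Naglu and Cd164 (not called), Gla, Glb1 and Arsa (not tested) and Sgsh (no probe set) also held the core before the start and are not shown. Each stretch reads 5' to 3' on the strand of its gene, and capitals mark CACGTG or GTCACGTG, also in its reverse complement. In GRCm38.p6 they lie at chr2:164833719-164833772, plus strand (Ctsa), chr7:126583310-126583425, minus strand (Cln3), chr16:44139345-44139430, minus strand (Atp6v1a), chr11:119267783-119267868, plus strand (Gaa), chr8:13159060-13159160, plus strand (Lamp1) and chr4:117887330-117887407, minus strand (Atp6v0b).
Ctsa: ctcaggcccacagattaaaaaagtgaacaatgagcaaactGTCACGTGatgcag
Cln3: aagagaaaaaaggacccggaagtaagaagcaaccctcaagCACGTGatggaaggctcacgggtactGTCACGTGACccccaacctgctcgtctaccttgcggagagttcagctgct
Atp6v1a: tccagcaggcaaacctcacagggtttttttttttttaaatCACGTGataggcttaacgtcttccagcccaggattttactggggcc
Gaa: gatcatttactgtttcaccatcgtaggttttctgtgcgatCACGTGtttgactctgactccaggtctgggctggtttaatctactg
Lamp1: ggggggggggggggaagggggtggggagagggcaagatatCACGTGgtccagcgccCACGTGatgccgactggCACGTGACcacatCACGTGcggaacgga
Atp6v0b: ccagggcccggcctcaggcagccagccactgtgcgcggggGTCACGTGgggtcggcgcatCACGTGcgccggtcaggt

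Lamp1 held 4 copies of the core in the 250 bases before the start, and Cln3, Atp6v0b and the untested Gla held 2 each. GTCACGTG was found in 6 of 21 hydrolases, 3 of 5 membrane proteins and 2 of 11 proton pump genes with a window, and in 0 of 4 cofactors. Of the 10 tested members with CACGTG, 4 were called higher and 1 lower, with a median change of 0.20. Of the 20 tested members with a window but without CACGTG, 11 were higher and 0 lower, with a median of 0.31. Of the 7 tested members with GTCACGTG, 2 were called higher and 0 lower, with a median change of 0.17. Of the 23 tested members with a window but without these letters, 13 were higher and 1 lower, with a median of 0.33. A match is a match of letters in this window and shows no binding.

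Among the hydrolases, 2 rose by more than 1 on the log2 scale. Asah1, acid ceramidase, which splits ceramide into sphingosine and a fatty acid, read 415, 524, 112, 437 and 503 on the control arrays and 1199, 1631, 1751, 1858 and 1475 on the mdx arrays. All mdx arrays lay above all control arrays, with control replicate 3 far below the other controls. The change of Asah1 was 1.36 ± 0.16 (SE, adjusted p = 4.11e-05). Man2b1, lysosomal alpha-mannosidase, which trims mannose from glycoprotein sugars, read 501, 96.5, 348, 321 and 164 in control and 967, 1066, 1413, 1754 and 1062 in mdx. The groups did not overlap, and 4 of the 5 control values were under the noise level. The change of Man2b1 was 1.31 ± 0.18 (SE, adjusted p = 0.000107). A second Man2b1 probe set, dimmer over all arrays but brighter in control (mean 385 against 286), went the other way. It read 349, 314, 586, 309 and 366 in control and 115, 288, 238, 8.77 and 289 in mdx. There the mdx arrays lay below all control arrays, with all 5 mdx values and 4 control values under the noise level, and the change was -0.45 ± 0.16 (SE, adjusted p = 0.0464). Averaged over its probe sets, Man2b1 rose by 0.43 (adjusted p = 0.0133), so its direction and size rest on which probe set is read.

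Ctsa encodes cathepsin A, a peptidase that also protects beta-galactosidase and neuraminidase in a complex. It read 1198, 1046, 1153, 1384 and 1082 in control and 2116, 2110.0, 2239, 2714 and 2473 in mdx. Every mdx array was above every control array, and the mean was 1.99 times higher. The change of Ctsa was 0.81 ± 0.089 (SE, adjusted p = 2.04e-05). Hexa, the alpha chain of beta-hexosaminidase, which degrades GM2 ganglioside, read 1488, 1466, 803, 1023 and 1496 in control and 1826, 2007, 2407, 2508 and 2814 in mdx. The groups did not overlap, though control replicates 3 and 4 lay apart from the other controls, and the change was 0.73 ± 0.15 (SE, adjusted p = 0.00209).

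The other 3 hydrolases called higher were dimmer or changed less. Gusb, beta-glucuronidase, stayed under the noise level on every control array (129 to 316) and read 445 to 843 in mdx, at least 1.59-fold higher (adjusted p = 0.000494). Acp2, the lysosomal acid phosphatase, was likewise below the noise level in control (223 to 282) and read 388 to 459 in mdx, at least 1.11-fold higher (adjusted p = 0.00493). Tpp1, a tripeptidyl peptidase, rose from 3399.8 ± 251 to 4114 ± 334 (SD, n = 5), a change of 0.25 ± 0.077 (SE, adjusted p = 0.0241), with overlapping groups. The Tpp1 call was lost without control replicate 2 (adjusted p = 0.0569), control replicate 5 (0.0624), mdx replicate 2 (0.0516), mdx replicate 3 (0.0616) or mdx replicate 4 (0.0533).

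Gaa, acid alpha-glucosidase, which digests glycogen inside the lysosome, was the hydrolase that went down. It read 6169.5, 5728, 5310.3, 5151 and 5027 on the control arrays and 2964, 4964, 3272, 4503 and 4584 on the mdx arrays. The highest mdx value lay just under the lowest control value, and mdx replicates 1 and 3 were the lowest. Gaa fell by 0.42 ± 0.13 on the log2 scale (SE, adjusted p = 0.0229) under the deposited scaling, and its change was 0.17 when arrays were scaled to their hybridization controls. The call was lost under quantile normalization (adjusted p = 0.0712), with all its probe sets averaged (0.056), without a filter (0.063), without control replicate 1 (0.0521) and without mdx replicate 3 (0.058). Relative to the median of all genes, the change of Gaa was -0.38 as deposited and -0.19 under the hybridization controls.

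The remaining 6 tested hydrolases did not pass. Ids and Smpd1, iduronate sulfatase and acid sphingomyelinase, gave differences of -0.27 (95% interval -0.53 to -0.01) and -0.20 (-0.46 to 0.05) as deposited, and of 0.24 and 0.38 under the hybridization controls, without a call under either scaling. Idua, alpha-iduronidase, stayed under the noise level on all 10 arrays, with a difference of 0.03 (-0.17 to 0.22). The intervals of Neu1 (-0.11 to 0.78), Acp5 (-0.42 to 0.94) and Naglu (-0.28 to 0.73), a sialidase, a phosphatase known from osteoclasts and macrophages, and a heparan sulfate enzyme, were too wide to set a direction. Calls appeared for Neu1 without control replicate 3 (adjusted p = 0.0301) and for Ids without control replicate 4 (0.0462). Under the hybridization controls, Neu1 (adjusted p = 0.0107) and Idua (0.0373) were also called higher, as were 47.7% of all tested genes. Relative to the median of all genes there, the change of Idua was -0.05.

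The luminal cofactors held the largest changes among the members. Grn, which encodes progranulin, a secreted and lysosomal protein cut into granulins, read 564, 156, 459, 316 and 351 in control and 1644, 2254, 2251, 3635 and 1939 in mdx. All mdx arrays lay above all control arrays, mdx replicate 4 was highest, and 3 control values were under the noise level. The change of Grn was 1.86 ± 0.19 (SE, adjusted p = 9.10e-06), while a second Grn probe set gave a difference of 0.09 (95% interval -0.19 to 0.38, adjusted p = 0.625). That second probe set was the brighter in control (mean 690 against 369). The average over the Grn probe sets was 0.98 (adjusted p = 3.4e-05). Npc2, which binds cholesterol in the lumen and hands it to Npc1, read 1414, 741, 1262, 1396 and 1177 in control and 4044, 5168, 5004, 5057 and 5562 in mdx. The lowest mdx value was far above the highest control value, and the change was 1.78 ± 0.13 (SE, adjusted p = 6.07e-07).

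Psap, the precursor of the saposins that present lipids to hydrolases, read 6621, 5499.9, 6338, 5875 and 5505 in control and 10215, 11989.8, 11137, 12597 and 13836 in mdx. The groups did not overlap, and the change was 0.96 ± 0.09 (SE, adjusted p = 5.06e-06). A second Psap probe set gave a difference of 0.27 (95% interval 0.03 to 0.51, adjusted p = 0.0788), and the average over its probe sets was 0.61 (adjusted p = 7.02e-05). Gm2a, the activator that lifts GM2 ganglioside to beta-hexosaminidase, was not tested: it read -629 to 121 in control and 111 to 455 in mdx, with 3 of the 5 mdx values under the noise level.

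**Figure D3:**
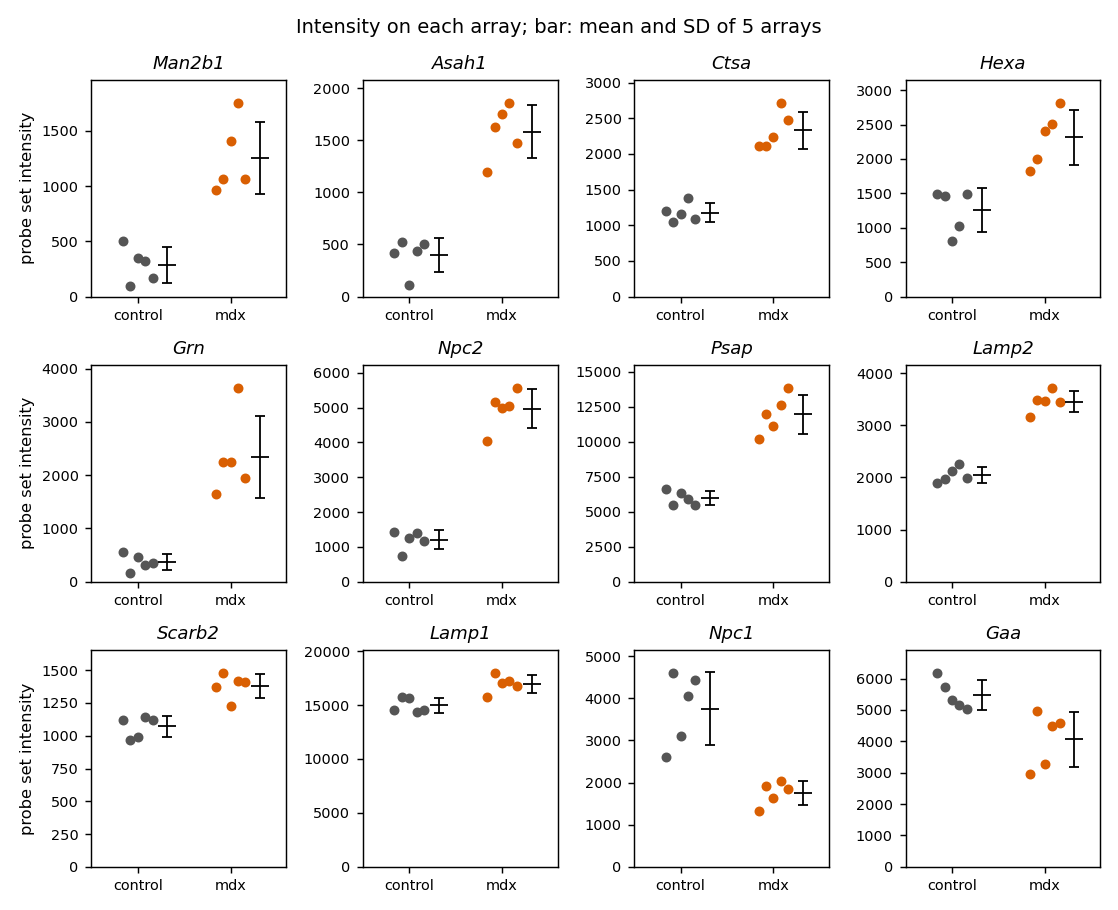
Probe set intensity of 12 members on each of 5 control (grey) and 5 mdx (orange) arrays, with the mean and SD beside the points; each panel has its own axis from 0. The groups do not overlap in 11 of the 12 panels, Lamp1 being the exception, and the mdx points lie lower only for Npc1 and for Gaa, whose change turns positive when arrays are scaled to their hybridization controls.

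Membrane proteins went both ways. Lamp2, a heavily glycosylated protein of the lysosomal membrane needed for fusion with autophagosomes, read 1893, 1969, 2113, 2266 and 1979.9 in control and 3154, 3492, 3466, 3712 and 3437 in mdx. All mdx values were above all control values, and the change was 0.66 ± 0.071 (SE, adjusted p = 1.47e-05), with a second probe set also called (0.76, adjusted p = 0.000341). Its relative Lamp1 read 14549.7, 15789, 15643, 14313 and 14568 in control and 15721, 17950.5, 17037, 17246 and 16746 in mdx. The ranges overlapped slightly and the difference of 0.17 ± 0.065 (SE, adjusted p = 0.0587) did not pass, with a 95% interval of 0.03 to 0.32. Lamp1 passed with equal trimmed means (adjusted p = 0.0211), under quantile normalization (0.000223), under the hybridization controls (0.000176), without a filter (0.0263) and without mdx replicate 1 (0.0414).

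Scarb2, the receptor that carries glucocerebrosidase to the lysosome, read 1123, 969, 994, 1147 and 1122 in control and 1371, 1477, 1228, 1414 and 1410.0 in mdx. The groups did not overlap and the change was small, 0.28 ± 0.076 (SE, adjusted p = 0.0124). Cln3, a membrane protein lost in juvenile Batten disease, read 170.3, 727, 244, 271 and 595 in control and 554, 699, 969, 795 and 1134 in mdx. Control replicates 2 and 5 lay within the mdx range, and the change was 0.67 ± 0.20 (SE, adjusted p = 0.0212). The Cln3 call was lost without control replicate 3 (adjusted p = 0.0505), mdx replicate 3 (0.0501) or mdx replicate 5 (0.0509), without a filter (0.0688) and with both its tested probe sets averaged (0.0788). Cd164, a sialomucin of endosomes and lysosomes, gave a difference of 0.06 (95% interval -0.21 to 0.34), and was called higher only under the hybridization controls (0.65, adjusted p = 0.00731) among the alternatives.

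Npc1, the membrane transporter that takes cholesterol from Npc2 out of the lysosome, was the member with the largest fall. It read 2610.3, 4598, 3103, 4052 and 4433 on the control arrays and 1323, 1919, 1644, 2047 and 1859.8 on the mdx arrays. Every mdx array lay below every control array, with control replicate 1 nearest to them, and the mean fell from 3759 ± 865 to 1758 ± 284 (SD, n = 5). Npc1 fell by 0.94 ± 0.15 on the log2 scale (SE, adjusted p = 0.000359). Under the hybridization controls its change was -0.38 and did not pass (adjusted p = 0.105), which was -0.74 relative to the median of all genes there. Npc2 and Npc1, the luminal and membrane partners of cholesterol export, thus changed in opposite directions under the deposited scaling.

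The proton pump is a rotary machine in which the V1 head splits ATP and the V0 ring moves protons through the membrane. Of 7 tested V1 subunits, 2 were higher and 1 lower. Of 4 tested V0 subunits 1 was higher, and of the 2 accessory proteins 1 was higher. These small counts stand beside 16.1% called higher and 18.6% lower over all tested genes. Atp6v1a, the catalytic subunit of the head, read 712, 795, 874, 641 and 671 in control and 1872, 2435, 2019, 2573 and 2609 in mdx. The groups were far apart, the mean was 3.12 times higher and the change was 1.26 ± 0.10 (SE, adjusted p = 1.48e-06). The other 2 Atp6v1a probe sets were also called higher, by 0.54 with overlapping groups (adjusted p = 0.0260) and by 0.92 (0.000447). The first of these was brighter in control than the representative (mean 774 against 738).

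Atp6v1b2, the B subunit that alternates with the A subunit in the head, read 1664, 1938, 1928, 1866 and 1893 in control and 2195, 2572, 2618, 2595 and 2696 in mdx. Replicate 1 was the lowest of each group, the groups did not overlap, and the change of 0.38 ± 0.074 (SE, adjusted p = 0.00161) was smaller than that of Atp6v1a. Its second probe set gave a difference of 0.27 and did not pass (adjusted p = 0.0578). Atp6v0e, a small V0 subunit, read 612, 555, 529.7, 778 and 553 in control and 987, 1586, 1398, 1304 and 1529 in mdx. The lowest mdx array was above the highest control array, and the change was 0.82 ± 0.11 (SE, adjusted p = 0.000123). Atp6ap2, an accessory protein also known as the prorenin receptor, read 287, 473, 488, 523 and 539 in control and 728, 807, 824, 929 and 768 in mdx. Control replicate 1 was far below the other controls, the groups did not overlap and the change was 0.51 ± 0.10 (SE, adjusted p = 0.00212).

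Atp6v1g1, a stalk subunit, read 6885, 9134, 8314, 9279 and 9229 in control and 6897, 6048, 7690.0, 6881 and 6048 in mdx. Control replicate 1 lay within the mdx range. Atp6v1g1 fell by 0.33 ± 0.097 (SE, adjusted p = 0.0189) under the deposited scaling and changed by 0.28 under the hybridization controls. The call was lost under quantile normalization (adjusted p = 0.109), with the replicate number as a block (0.0512) and without mdx replicate 2 (0.0504). Relative to the median of all genes its change was -0.30 as deposited and -0.08 under the hybridization controls.

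The other 8 tested pump genes did not pass as deposited, and all 8 were called higher under the hybridization controls. Their differences ran from -0.01 (Atp6v0b, 95% interval -0.18 to 0.16) to 0.21 (Atp6v1h, -0.12 to 0.55). Atp6v1d, with an interval of -0.20 to 0.21, and Atp6v0d1, with -0.15 to 0.24, lay near 0 as deposited, as did Atp6v0b. Under the hybridization controls the changes of these 3 genes were 0.59, 0.55 and 0.56 (adjusted p = 0.00103, 0.00504 and 0.00327). Relative to the median of all genes there, which was 0.36 with 47.7% called higher, they were 0.23, 0.20 and 0.21. Atp6v1c1, Atp6v0a1 and Atp6v1e1 gave differences of 0.14, 0.19 and 0.19. Atp6ap1, the other accessory protein, read 1837 to 2151 in control and 2171 to 2501 in mdx without overlap, and its difference of 0.18 did not pass (adjusted p = 0.0619). Atp6ap1 passed with equal trimmed means (adjusted p = 0.0426), under quantile normalization (0.0330), under the hybridization controls (0.000262) and without a filter (0.0203), and Atp6v1e1 under quantile normalization (0.0477) and the hybridization controls (0.00159). Subunits of 1 complex were thus measured with differences from -0.33 to 1.26 under the deposited scaling and from 0.28 to 1.74 under the hybridization controls.

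**Figure D4:**
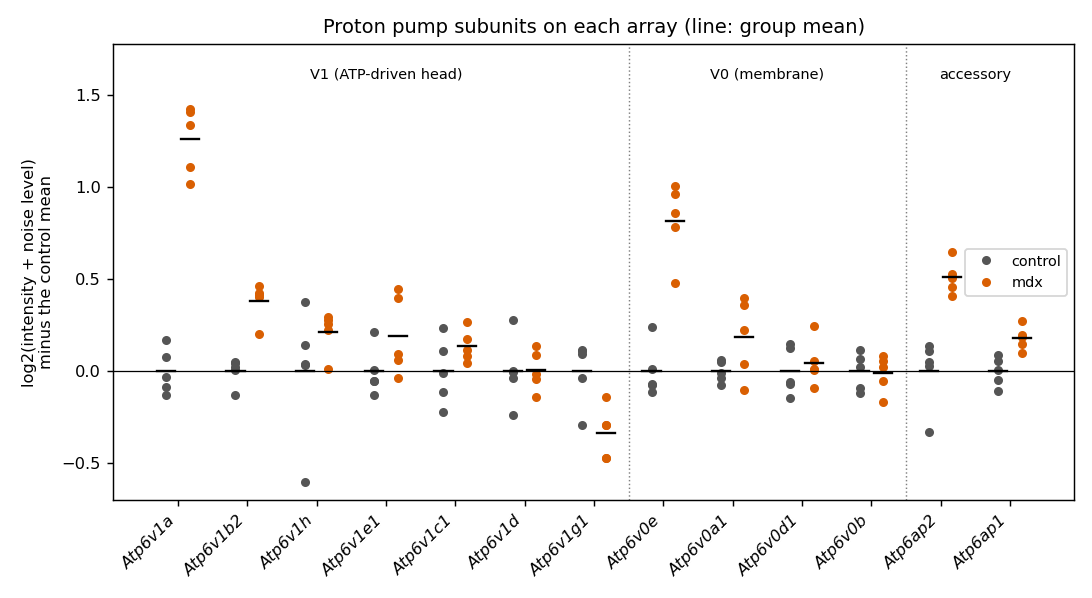
Proton pump genes on each array, as log2(intensity + noise level) minus the control mean of the gene, for 5 control (grey) and 5 mdx (orange) arrays; lines are group means, and subunits are split into V1, V0 and accessory proteins. Atp6v1a (1.26) and Atp6v0e (0.82) stand above the others, most subunits overlap around 0, and Atp6v1g1 lies below 0 here, its change turning positive when arrays are scaled to their hybridization controls.

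Of the 12 members without a test, 5 had no probe set of their own (Manba, Arsb, Sgsh, Atp6v0c and Atp6v1f) and 7 did not pass the filter. Besides Gm2a these were Gla, Glb1, Lipa, Arsa, Ppt1 and M6pr. Lipa, the acid lipase that frees cholesterol and fatty acids, read -92.8, -180.4, -18.6, -82.3 and -75.1 in control and 18.3, 308, 398, 499 and 350.4 in mdx. All its control values were below 0 and 3 mdx values were under the noise level, without overlap of the groups. Gla, alpha-galactosidase A, read -38.6 to 22.1 in control and 54.0 to 243 in mdx, also without overlap and with all arrays under the noise level. Arsa, M6pr and Ppt1 had lower means in mdx (40.2, 13.7 and 45.2) than in control (79.5, 34.7 and 57.9). Glb1 had a higher mean in mdx (11.4) than in control (-25.0). For each of these genes the groups overlapped, with all arrays under the noise level. A second Arsa probe set was higher in mdx without overlap (means of -141 in control and 72.1 in mdx). With no filter at all, 21 of the 43 members were called higher and 2 lower, against 11.4% and 12.0% of all 8251 genes.

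Probe sets of the same gene did not always give the same call. Of the 43 members, 15 had several probe sets, and 10 of their 18 further probe sets were tested. Of these, 3 gave the call of the brightest probe set, 5 were uncalled where the brightest was called, 1 was called in the opposite direction (Man2b1) and 1 was uncalled like the brightest.

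Related genes outside the list were counted in the same way, beside 16.1% called higher and 18.6% lower over all tested genes. Of 11 tested cathepsins and legumain, the cysteine and aspartic proteases of the lysosome, 8 were higher and 0 lower, with a median change of 1.26, led by Ctss (3.63 ± 0.12 (SE, adjusted p = 1.33e-09)) and Ctsh (2.38 ± 0.17 (SE, adjusted p = 2.60e-07)). Of 7 tested other lysosomal enzymes and cofactors, 3 were higher and 1 lower, with a median of 0.06, and Scpep1, a carboxypeptidase, and Fuca1, alpha-fucosidase, were at least 1.79-fold and 1.11-fold higher, with all control values under the noise level. Of 7 tested other lysosomal membrane proteins, 3 were higher and 2 lower, with a median of -0.04 as deposited and 0.49 under the hybridization controls. Relative to the median of all genes, these medians were -0.004 and 0.14. Slc11a1, a metal transporter of the phagosome, lay under the noise level on all control arrays (16.9 to 193) and was at least 2.41-fold higher in mdx (adjusted p = 9.00e-06), and Cd63, a tetraspanin, rose by 0.74 ± 0.083 (SE, adjusted p = 4.00e-05). Of 25 tested genes for sorting and fusion, 3 were higher and 3 lower, with a median of 0.08, so neither count exceeded the share over all tested genes.

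The pump also has isoforms typical of certain cells, of which 3 were tested. Tcirg1, the a3 subunit known from osteoclasts and macrophages, had all control arrays under the noise level and a mean of 452 ± 227 (SD, n = 5) in mdx, called higher (adjusted p = 0.0152) at a level close to the noise. Atp6v0a2 and Atp6v0e2 gave differences of -0.14 and -0.27 and did not pass (adjusted p = 0.249 and 0.123). The small V0 subunit pair Atp6v0e and Atp6v0e2 thus gave 0.82 and -0.27, a contrast that was not tested.

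Of 8 tested genes of the TFEB family and of nutrient signalling to the lysosome, 1 was higher and 4 lower as deposited, with a median of -0.26. Over all tested genes as deposited, 16.1% were higher and 18.6% lower. Under the hybridization controls 2 of these 8 were higher and 0 lower, with a median of 0.19. All genes had a median of 0.36 there, with 47.7% called higher and 1.46% lower. Relative to the median of all genes, the median of these 8 was -0.22 as deposited and -0.17 under the hybridization controls. The called genes with the largest changes were Rragd (-0.59) and Rragc (0.45), 2 GTPases that tie nutrients to the lysosome surface. Tfeb itself was not tested, with values of 95.8 to 245 in control and -78.7 to 87.5 in mdx, all under the noise level. Of 17 tested autophagy genes, 3 were higher and 7 lower as deposited, with a median of -0.22. Under the hybridization controls 9 were higher and 0 lower, with a median of 0.35. Relative to the median of all genes, these autophagy medians were -0.18 and -0.004. The called autophagy genes with the largest changes were Map1lc3a (0.91), which encodes an LC3 protein, and the kinase gene Ulk1 (-0.71).

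Markers of some other cells also changed, in directions that differed between the lists. Over all tested genes, 16.1% were called higher and 18.6% lower. Of 23 tested macrophage markers 21 were higher and 0 lower, with a median change of 1.64. Of these, Cd53, Lgals3, Fcgr2b and Ptprc passed the filter through the mdx arrays alone. Their highest control values were 89.6, 129, 77.3 and 66.2, under the filter level of 134.3. The filter thus favours a higher call for such genes, and the count and median lean on it in part. The summed intensity of the 25 markers with a probe set was 7153 to 11473 on the control arrays and 71317 to 93879 on the mdx arrays. Lgals3, galectin-3, was not above the noise level in control (-268 to 129) and was at least 25.6-fold higher in mdx, and Lyz2, lysozyme, changed by 3.37. In control muscle, 12 of the 25 lay under the noise level on all arrays, Itgam and Aif1 were at or below 0 on all 5 and Adgre1 and Cd53 on 3. In mdx, Itgam was at or below 0 on 2 arrays. Of 12 tested fibroblast markers 9 were higher and 2 lower, and their summed intensity was 47311 to 58138 in control and 87769 to 103059 in mdx. Satellite cell and regenerating fibre markers were higher for 6 of 10 tested and lower for 0.

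Mature muscle fibre markers were lower for 14 of 17 tested and higher for 0 under the deposited scaling, with a median of -0.55. Under the hybridization controls their median was 0.07 with 2 lower, against 0.36 and 1.46% lower for all genes. Relative to the median of all genes, the median of the fibre markers was -0.52 as deposited and -0.28 under the hybridization controls. Under both, 0 of the 17 lay above the median of all genes. The summed intensity of the fibre markers was 377174 to 595448 in control and 285693 to 403536 in mdx, so the groups overlapped. Of 10 tested endothelial markers 1 was higher and 2 lower, near the shares over all tested genes (16.1% higher, 18.6% lower). Of 4 tested lymphocyte markers 0 were higher and 2 lower, and 7 of the 10 with a probe set lay under the noise level on all control arrays. Of 7 tested granulocyte and mast cell markers 2 were higher and 0 lower. Whether cell makeup shifted, and its part in the changes of lysosomal genes, was not tested. In a piece of muscle, fewer cells of a type and less RNA per cell cannot be told apart.

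**Figure D5:**
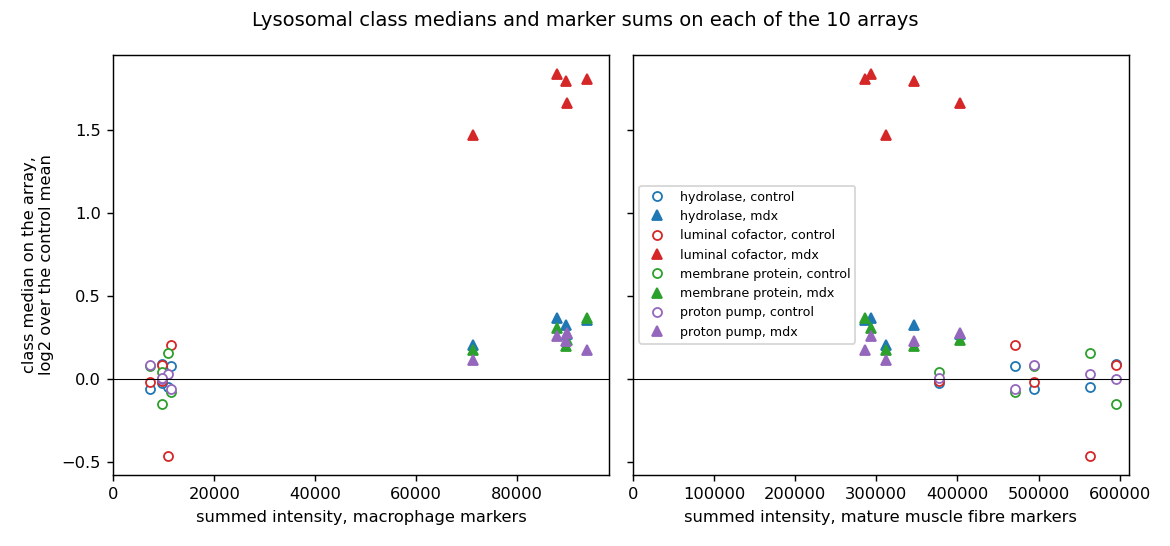
Median over each lysosomal class of the log2 values on an array, relative to the control mean of each gene, against the summed intensity of macrophage markers (left) and mature muscle fibre markers (right) on the same array; open circles are the 5 control arrays and triangles the 5 mdx arrays. The mdx arrays form a separate cluster at high macrophage sums, with cofactor medians of 1.47 to 1.84 against hydrolase medians of 0.21 to 0.36, and the fibre marker sums of the groups overlap.

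By array, the median over all 36 members relative to the control means was -0.02 to 0.03 in control and 0.20 to 0.36 in mdx. The lowest mdx value was that of replicate 1, and relative to the median gene of each array the mdx values were 0.30 to 0.36. For the pump these relative medians were 0.21 to 0.27 and for the membrane proteins 0.22 to 0.40. Without mdx replicate 1, 18 members were called higher and 3 lower.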

How the data were processed

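Gastrocnemius RNA was read on 10 arrays, 5 control and 5 mdx, grouped by title and description. The authors deposited 1 table of probe set intensity values on a linear scale for 12488 probe sets, some below 0. How they were background-corrected and scaled, and with which software, is not given in the sources used here. All columns were matched to samples, with 0 left over. Precision is limited by the number of arrays.

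The 66 control probe sets were left out. Genes were named through the platform annotation, with 10833 probe sets naming 1 gene, 396 several and 1193 none. Each value, or 0 where it was below 0, entered as log2(intensity + 373.2), where 373.2 is the root mean square of the 27483 values below 0. Probe sets entered the test if 5 or more arrays exceeded 134.3 (the 40th percentile over the table). The test was limma's two-sided moderated test (version 3.58.1, R 4.3.3; eBayes, trend on), adjusted by Benjamini-Hochberg over 7612 probe sets, with a threshold of 0.05. The probe set brightest on average over all 10 arrays, mdx included, represents a gene. This rule can favour a probe set that is high in mdx. For Grn, Man2b1 and Atp6v1a another probe set was brighter in control (690, 385 and 774, against 369, 286 and 738). There the change was 0.09, -0.45 and 0.54, against 1.86, 1.31 and 1.26 for the representative. In the other members with several probe sets the representative was also the brightest in control. Where a whole group lay below 373.2, the fold is at least the geometric mean of the bright group divided by that level. The script was tested on simulated data.

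Values on every array are given for, in each class, up to 4 called members with the largest change, each called member whose sign opposes its class median, and members with opposite calls. Of other lists, at most the 2 called genes with the largest changes are named, beside defining markers at 0. Lipa, Lamp1, Tfeb and the uncalled pump isoforms were named outside this rule, with their values seen. Members, classes and lists were chosen with earlier results of these data known, so they lend no independent support. Alternatives were the noise level, filter, scaling, variance trend, probe set rule, replicate block and leaving out each array. A lower noise level (156.8, from the median value below 0) was added after the data were seen. Promoter windows are those of RefSeq, build GRCm38.p6.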

Additional observations from a re-analysis of the deposited data

Results flagged for a closer look

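Of 72 groups of 5 arrays, 1 for each tested member and genotype, 5 held an array whose gap to its nearest neighbour took more than 0.71 of the range of the group, which chance alone gives for about 1 in 20 groups. Control replicate 3 was low for Asah1 (intensity 112, gap 0.789 of the range). Control replicate 1 was low for Atp6v1b2 (1664, 0.749) and for Atp6ap2 (287, 0.765). In mdx, replicate 1 was low for Atp6v1b2 (2195, 0.769) and replicate 5 for Atp6v1h (753, 0.762). Of these 5 flags, 4 lie in the proton pump, which holds 13 of the 36 tested members. Whether flags gather in the pump was not tested. Asah1, Atp6v1b2 and Atp6ap2 were called higher without any one of the 10 arrays, and Atp6v1h was called in none of these fits.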

How the results depend on the processing

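Of the 20 called members, 12 were called under all 21 alternatives. Asah1, Gusb and Man2b1 were called in each alternative that tested them but were too dim for the filter on all 10 arrays, and Tpp1, Cln3, Npc1, Gaa and Atp6v1g1 lost the call in 1 or more. Scaling to the hybridization controls moved most: 29 members were called higher and 0 lower, the medians became 0.67 for hydrolases, 2.28 for cofactors, 0.78 for membrane proteins and 0.66 for the proton pump, and 5 changes turned positive, those of Gaa (0.17), Atp6v1g1 (0.28), Atp6v0b (0.56), Ids (0.24) and Smpd1 (0.38). The median of all genes was 0.36 under the hybridization controls, with 47.7% called higher and 1.46% lower. Quantile normalization left 1 member called lower. The hydrolase median was 0.41 with the noise level halved, 0.22 with it doubled and 0.44 with the level from the median value below 0, chosen after the data were seen. The cofactor median was 1.45 with the noise level doubled, 1.37 without a filter and 0.98 with probe sets averaged. Leaving out each array in turn gave hydrolase medians of 0.26 to 0.39. Replicate numbers did not pair the arrays (correlations of deviations from -0.16 to 0.04, with 1 control closest to its own number), and with the replicate block 17 members were called higher and 2 lower. Of 751 values of genes under alternatives, 692 kept direction and call, 19 lost the call, 21 gained it and 19 changed sign, 17 of them in members without a call. Dim genes are limited by the noise level: the control values of Gusb and Acp2 all lay below it, so their folds are lower bounds.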
